A study of Daphnia magna with 16 samples.

Results

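The transcripts described here are those whose probes gave more fluorescence in every TRH mutant *Daphnia magna* female than in every wild type female. TRH, tryptophan hydroxylase, catalyses the first and rate-limiting step of serotonin synthesis. A gene probe was taken when its lowest deposited value over the 12 mutant arrays was above its highest value over the 4 wild type arrays. It also had to be marked well above background by the scanner software on at least 10 of the 12 mutant arrays. Of 51424 gene probes, 27 met both conditions, 0.246% of the 10965 probes with enough mutant arrays above background. The members were ranked by their gap, the lowest mutant value minus the highest wild type value on the log2 scale, and all 27 were kept, since the limit was 150. The rule also left out 3 probes by number, of which 0 would have met it. The members were thus chosen by their values in mutants against wild type, and those values are given as a description.

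RNA of single females was hybridised to Agilent one-colour arrays, 4 females in each of 4 clones, labelled with replicate numbers 3, 5, 7 and 9. T+ is the mono-allelic mutant (Clone 13, +/-), and clones 16 and 17 are the bi-allelic mutants (-/-). The paper names its bi-allelic clones TA− and TB−, and the labels do not state which of them is clone 16 or clone 17. W is the wild type clone F (+/+), from which the mutant lines were made with CRISPR-Cas9. Whole bodies were used in all clones. The labels state an age of 5 days in one field and 4 days in another, whereas the paper describes adults. The mono-allelic genotype was represented by 1 clonal line and the bi-allelic genotype by clones 16 and 17. Within a line, the clone and its mutation cannot be told apart. The probe of TRH was not matched here, so the level of the mutated gene was not checked. In RNA of a whole body, fewer cells of a type and less RNA per cell cannot be told apart.

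Serotonin is made from tryptophan by hydroxylation and decarboxylation. In arthropods it acts as a neurotransmitter and neurohormone with known roles in feeding, growth and reproduction. A bi-allelic TRH mutant carries no intact copy of the gene, and a mono-allelic mutant retains 1.

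Most members could not be given a gene. The files and the reference table do not pair their probes with genes, and a gene model was known for 2 members only. These are the probes CUST_41043_PI429715507 and CUST_41039_PI429715507, both designed for gene model Dapma7bEVm001846, which has no protein name in the tables used here. They are 2 readings of 1 gene model and not independent evidence. The members with the largest gaps, CUST_148729_PI429715507 and CUST_127335_PI429715507, are given by probe identifier, and the others by rank. Pathways and tissues could not be assigned to the members.

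On the 16 arrays, 9888 to 14668 probes were well above background. W replicate 7 stood at the low end and had a median negative control signal of 5.23 log2 units, against 3.29 to 4.11 on the other arrays. It was the lowest W array for 15 of the 27 members, and set the highest W value for 1. The parts of the chip differed in local background. The first row of chip positions held W replicates 3, 5 and 9 and, among mutants, clone 17 replicate 7, with local background medians of 35 to 37 against 41 to 47 on the other arrays. Clone 17 replicate 7 had the lowest mutant value for 1 member only. The part of position and background in the selection was not tested.

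The gap was large for few members. It was 1.26 log2 units at rank 1, 0.679 at rank 2 and 0.307 at rank 3, and between 0.00648 and 0.219 for the other members. The last members inside the limit had gaps of 0.00648 and 0.0144, and the first probes outside it had gaps of -0.00782 and -0.0203. Another 26 probes were higher on every mutant array and missed the background minimum, and 15 of these were well above background on no mutant array. The nearest of them had 7 such mutant arrays and a gap of 0.0653. Without the background minimum, 53 probes (0.103% of all gene probes) were higher and 162 were lower on every mutant array than on every W array. On W arrays, 16 members were well above background on all 4, 5 on 3, and 2 each on 2, 1 and 0 arrays. The members ranged from bright transcripts measured in all clones to dim ones measured mainly in mutants. The rule allowed this range, since it set the background minimum on the mutant arrays only.

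CUST_148729_PI429715507, the member with the largest gap, varied widely among mutants and was near background in W. Its normalized log2 fluorescence in replicates 3, 5, 7 and 9 was 6.67, 11.29, 7.09 and 6.88 in T+, and 9.93, 11.09, 7.57 and 10.02 in clone 16. It was 5.38, 9.24, 6.55 and 6.33 in clone 17, against 4.12, 3.74, 3.82 and 3.78 in W. All 3 mutant clones overlapped each other, and replicate 5 was the highest array within each of them. The probe was well above background on 11 of the 12 mutant arrays and on no W array, so the W level is only a bound. Against that bound, T+ was at least 5.73-fold higher and clone 16 at least 18.2-fold higher. Without T+ replicate 5, however, the bound for T+ was 2.67-fold. That for clone 16 was 13.1-fold without clone 16 replicate 5 and 29.5-fold without clone 16 replicate 7. No bound is given for clone 17, where replicate 3 was not well above background. The bound sets the mean of the clone against the lowest signal well above background on the W arrays, or the probe's own signal there if that was higher.

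CUST_127335_PI429715507 was among the brightest probes, at percentile 99.4 of the mean levels of tested probes. Its log2 fluorescence was 15.77, 14.25, 16.41 and 15.89 in T+ replicates 3, 5, 7 and 9, and 14.57, 14.35, 14.52 and 14.72 in clone 16. It was 14.04, 15.33, 15.94 and 15.85 in clone 17, against 13.23, 13.37, 13.13 and 12.96 in W. T+ and clone 17 spread widely, with SDs of 0.927 and 0.875, whereas clone 16 and W were narrow, with SDs of 0.153 and 0.172 (n = 4 each). T+ replicate 5 and clone 17 replicate 3 lay below the other females of their clones.

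Rank 3 was dimmer and resembled rank 2 in its profile across females. Its log2 fluorescence was 8.72, 8.04, 9.41 and 8.83 in T+, 7.51, 7.65, 7.23 and 7.19 in clone 16, with 7.11, 7.93, 8.95 and 8.83 in clone 17, against 6.72, 6.80, 5.68 and 6.63 in W. All T+ arrays were above all arrays of clone 16, and clone 17 overlapped both. W replicate 7 was the lowest W array by nearly a log2 unit.

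The probes of gene model Dapma7bEVm001846 were bright and gave closely similar values. CUST_41043_PI429715507 was at 13.38, 13.15, 13.17 and 13.20 in T+, 12.85, 12.99, 12.77 and 12.78 in clone 16, with 12.94, 13.03, 13.24 and 13.34 in clone 17, against 12.60, 12.58, 12.51 and 12.62 in W. CUST_41039_PI429715507 was at 13.24, 13.14, 13.23 and 13.15 in T+, 12.85, 12.88, 12.80 and 12.71 in clone 16, with 12.93, 12.90, 13.27 and 13.26 in clone 17, against 12.56, 12.55, 12.49 and 12.58 in W. With both probes T+ lay above clone 16 on every array. In clone 17, replicates 7 and 9 were at the level of T+ and replicates 3 and 5 were close to clone 16. The mutant arrays spanned 0.61 and 0.56 log2 units, against 0.11 and 0.09 for the W arrays. Both probes stand on a supplementary list of probes higher in T+, and also on the list of those unique to T+. These lists were chosen on these samples and are no independent evidence of direction.

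The remaining members of the first 12 ranks differed from W by less than ranks 1 to 3. Rank 5 was at 7.96 to 8.96 in T+, 7.92 to 9.17 in clone 16 and 7.69 to 9.02 in clone 17, against 7.11 to 7.49 in W. Rank 12 was at 8.84 to 9.56 in T+, 8.87 to 9.81 in clone 16 and 8.73 to 9.69 in clone 17, against 8.01 to 8.60 in W. In both, replicate 5 was the highest array of each mutant clone. Rank 4, at percentile 92.4 of mean level, was more even, with 11.34 to 11.72 in T+, 11.45 to 11.80 in clone 16 and 11.38 to 11.84 in clone 17, against 10.50 to 11.11 in W. Rank 8 was at 6.63 to 7.02 in T+, 6.60 to 7.22 in clone 16 and 6.43 to 6.81 in clone 17, against 5.28 to 6.29 in W, where 1 of 4 arrays was well above background. Its mutant arrays spread over 0.79 log2 units, against 1.01 for its W arrays. Ranks 6, 9 and 10 had smaller mean differences of mutants minus W, 0.58, 0.51 and 0.61, and their mutant clones overlapped.

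Rank 14 was the member outside the first 12 ranks with the largest difference. Its log2 fluorescence was 10.72, 12.21, 10.58 and 10.33 in T+, 11.84, 12.01, 11.10 and 12.22 in clone 16, with 10.21, 11.10, 10.83 and 10.58 in clone 17, against 9.83, 9.55, 10.10 and 9.56 in W. The lowest array of clone 16 and the highest of clone 17 were both at 11.10. T+ replicate 5 was well above the other T+ females and at the level of clone 16. For rank 15, every mutant array but none of W measured the probe above background. Its level was 6.07 to 6.57 in T+, 6.26 to 6.84 in clone 16 and 6.45 to 6.87 in clone 17, against 4.89 to 5.97 measured in W. Against the W bound the clones were higher by at least 1.49-fold (T+), 1.5-fold (clone 16) and 1.83-fold (clone 17). Without W replicate 9 these bounds fell to 1.28-fold, 1.29-fold and 1.57-fold.

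Among the lower ranks, several members had a profile across females that recurred. Rank 19 was at 8.39, 9.09, 8.69 and 8.52 in T+ replicates 3, 5, 7 and 9, 8.88, 9.23, 8.46 and 8.83 in clone 16, with 8.09, 9.14, 8.33 and 8.37 in clone 17, against 8.01, 8.02, 7.85 and 8.04 in W. As for rank 1, replicate 5 was the highest array of T+ and of clone 17. Rank 22 was at 10.04, 9.48, 10.19 and 10.14 in T+, 9.42, 9.52, 9.54 and 9.53 in clone 16, with 9.58, 9.66, 9.99 and 9.74 in clone 17, against 9.35, 9.38, 8.96 and 9.35 in W. T+ replicate 5 was the lowest T+ array here, as for ranks 2 and 3. Every array of clone 16 was below every array of clone 17.

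Rank 16 was highest in T+, at 6.68, 7.16, 6.97 and 6.77, with 6.70, 6.46, 6.78 and 6.64 in clone 16 and 6.76, 6.54, 6.50 and 6.43 in clone 17, against 5.88, 6.36, 5.91 and 6.30 in W. Rank 26 was dim, well above background on 10 mutant arrays and 1 W array, and its level was 6.04 to 6.74 in T+, 6.65 to 6.83 in clone 16 and 5.92 to 7.19 in clone 17, against 4.50 to 5.90 in W. Its W arrays ranged more widely than those of any other member, over 1.40 log2 units, with W replicate 7 at the low end. Ranks 13, 18, 20, 21, 23, 24 and 25 had mean differences of mutants minus W of 0.64, 0.43, 0.37, 0.60, 0.36, 0.33 and 0.66. Their 3 mutant clones overlapped except for rank 24, where every array of T+ was below every array of clone 16. The share of all tested probes with such a separation of mutant clones is not given. Nothing is therefore read from the separations at this and other ranks.

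The smallest differences came from probes with little spread. The member of rank 27 was at 9.66 to 9.89 on the mutant arrays and 9.53 to 9.66 on the W arrays, a mean difference of 0.17. Rank 17 averaged 11.24 ± 0.041 in T+, 11.21 ± 0.0844 in clone 16 and 11.13 ± 0.0558 in clone 17, against 10.97 ± 0.0341 in W (SD, n = 4 each), a mean difference of 0.22. The mutant arrays of rank 27 spanned 0.22 log2 units and those of rank 17 spanned 0.23.

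Over all members, T+ differed from W by a median of 0.65 log2 units, clone 16 by 0.65 and clone 17 by 0.56, against medians of 0.06, 0.11 and 0.07 over the 17286 tested probes. The W level of ranks 1 and 15 is only a bound, and with these members at their bounds the median was 0.65 for T+ and 0.60 for clone 16. The other 25 members ranged over 0.10 to 2.41 for T+, 0.16 to 2.03 for clone 16 and 0.15 to 2.12 for clone 17. Their direction was fixed by the rule. All 27 passed the filter on dim probes, which kept a probe above the 95th percentile of negative controls on at least 4 arrays. A probe was called at a Benjamini-Hochberg adjusted p-value below 0.05 in limma and a change of at least 1.5-fold. Among members, 9 were called higher in T+, 4 in clone 16 and 1 in clone 17. Over all tested probes, 0.318% (55) were called higher for T+, 0.127% (22) for clone 16 and 0.0347% (6) for clone 17. Since the rule used these contrasts, nothing is read from these counts. The T+ calls were ranks 2, 3, 7, 8, 11, 13, 15, 16 and 22. The calls in clone 16 were ranks 1, 6, 8 and 14, and the call in clone 17 was rank 15. Ranks 7 and 11 were at 0.56 and 0.55 in clone 17, with limma adjusted p-values of 0.0355 and 0.0333. They missed the call there by the 1.5-fold limit only. The clones share the W arrays, and their counts are not independent of each other. The counts depended on single females. Members called in T+ numbered 4 without T+ replicate 7, and 5 without T+ replicate 3 or 9, W replicate 7, clone 16 replicate 3 or clone 17 replicate 9. Those called in clone 16 numbered 13 without T+ replicate 5 and 12 without clone 17 replicate 5, but 2 without W replicate 3 or 5, 1 without W replicate 9 and 0 without clone 16 replicate 3, 5 or 9. In clone 17 the number was 6 without replicate 3, 3 without replicate 5 or T+ replicate 5, 2 without clone 16 replicate 7, and 0 without clone 17 replicate 7 or 9 or W replicate 9. Over all tested probes, from 55, 22 and 6, the counts moved as well. For T+ they were 14 without T+ replicate 7, 19 and 23 without T+ replicates 3 and 9, and 24 without W replicate 7. Clone 16 had 323 without T+ replicate 5 and 221 without clone 17 replicate 5. Without its own replicates 3, 5 and 9 it had 1, 1 and 3. Clone 17 had 12 without replicate 3, 26 without replicate 5, 16 without T+ replicate 5, and 1 and 0 without replicates 7 and 9.

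The arrays lay on 2 slides, with the slide of W replicate 7 not given. On slide 1 (2 W arrays) the median member was higher in mutants by 0.53 and on slide 2 (1 W array) by 0.46. The rule fixes the direction of each member within a slide, so these values describe its size only.

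The members were compared between mutant clones by the number of mutated alleles, a difference by which the rule did not rank them. The rule did require every T+ array to lie above every W array. A transcript at the W level in T+ and higher only in bi-allelic clones could thus not be a member. The comparison therefore covers only transcripts already higher in T+, and cannot decide whether transcripts in general followed the number of mutated alleles. The mean of clones 16 and 17 was compared with T+ by limma, two-sided, over all tested probes. No member was called, at a background of 0.0521% (9 of 17286 probes). With 1 array left out, 0 members were called in each case, while tested probes called ranged over 3 to 406, the highest number without T+ replicate 5. The median difference was 0.03, against 0.04 over all tested probes, and members ranged over -0.95 to 0.28. At an unadjusted p-value below 0.05 there were 5 members, ranks 3, 7, 11, 16 and 22, all lower in the bi-allelic clones, and 9.18% of tested probes (1587) were below the same limit. The lowest adjusted p-value of a member was 0.54 by limma.

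The intervals of these differences were wide for rank 1 and narrow for the named gene model. For CUST_148729_PI429715507 the difference of bi-allelic clones minus T+ was 0.28 log2 units (95% interval -1.66 to 2.22, limma adjusted p = 0.935). It was 2.40 on slide 1, which held replicate 5 of clones 16 and 17, and -1.83 on slide 2, which held T+ replicate 5. Replicate 5 was the highest array of each of these clones for this probe. With 1 array left out its sign was not stable. It was 1.38 without T+ replicate 5, and -0.15, -0.02, -0.09 and -0.11 without T+ replicate 3, 7 or 9 or clone 17 replicate 5. It was 0.04 without clone 16 replicate 5, 0.63 without clone 16 replicate 7, 0.53 without clone 17 replicate 3 and 0.88 with array weights. For CUST_127335_PI429715507 the difference was -0.66 (-1.47 to 0.14, limma adjusted p = 0.553), and -0.77 and -0.56 within slides 1 and 2. It was -1.11 without T+ replicate 5, -0.39 without T+ replicate 7 and -1.01 after scaling to the 75th percentile. Rank 3 had the lowest value, -0.95 (-1.68 to -0.21), and ranks 16 and 22 were at -0.29 (-0.57 to -0.02) and -0.34 (-0.64 to -0.05), each with an adjusted p of 0.54 in limma. Without T+ replicate 5, rank 22 was at -0.51 with an adjusted p of 0.0453 in limma, under the 1.5-fold limit. Gene model Dapma7bEVm001846 differed by -0.23 (-0.43 to -0.03) for CUST_41043_PI429715507 and -0.24 (-0.43 to -0.04) for CUST_41039_PI429715507, both at an adjusted p of 0.54 in limma. Within slides 1 and 2 these differences were -0.26 and -0.21, and -0.25 and -0.22. For rank 1, the interval includes a 2-fold difference in either direction, and for both probes of the gene model it does not.

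The bi-allelic clones were then compared with each other. Here too, the rule required every array of each clone to lie above every W array. A transcript at the W level in clone 16 or clone 17 could thus not be a member. No member was called between clone 16 and clone 17, at a background of 0.00579% (1 of 17286 probes). The median difference was 0.09, against 0.04 over all tested probes, and members ranged over -0.81 to 2.78. At an unadjusted p-value below 0.05 there were 4 members, ranks 1 and 14 higher and ranks 7 and 11 lower in clone 16, while 16.0% of tested probes (2764) were below this limit. The lowest adjusted p-value of a member was 0.235 by limma. Without T+ replicate 5 or clone 17 replicate 5, 1 member was called, and tested probes called numbered 405 and 1792.

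CUST_148729_PI429715507 had the widest separation, 2.78 log2 units higher in clone 16 (95% interval 0.54 to 5.01, limma adjusted p = 0.236), with 2.77 on slide 1 and 2.78 on slide 2. Clone 17 replicate 3, not well above background for this probe, enters this difference at its measured value. Without clone 17 replicate 5 the difference was 3.57 and passed the test (limma adjusted p = 0.0393). Rank 14 was 1.11 higher in clone 16 (0.33 to 1.90, limma adjusted p = 0.235), and passed the test without T+ replicate 5 (1.11, limma adjusted p = 0.0412). CUST_127335_PI429715507 was at -0.75 (-1.69 to 0.18, limma adjusted p = 0.447), with -1.05 on slide 1, -0.45 on slide 2 and -1.17 without clone 17 replicate 3. CUST_41043_PI429715507 was at -0.29 (-0.52 to -0.06) and CUST_41039_PI429715507 at -0.28 (-0.50 to -0.06), both with an adjusted p of 0.235 in limma. The gene model thus had its lowest mean of the mutant clones in clone 16, where rank 1 had its highest, and neither difference passed the adjusted threshold in this fit.

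Females of 1 clone also differed from each other. T+ replicate 5 was above the other T+ females for 16 of the 27 members, below them for 7 and between them for 4. Clone 17 replicate 5 was above the others of its clone for 13, below for 4 and between for 10. Over the tested probes, T+ replicate 5 was above its clone for 38% and below for 34.2%, and clone 17 replicate 5 for 38.9% and 37.1%. Both females were above their clones for 11 members and below for 1, and on opposite sides for 2. Over the tested probes, both were above for 24.7%, below for 20.6% and on opposite sides for 10.6%.

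The largest of these deviations were at rank 1, where replicate 5 exceeded the mean of the other females by 4.41 log2 units in T+ and 3.16 in clone 17. At rank 14 the deviations were 1.67 and 0.56, and at rank 5 they were 0.78 and 0.98. At rank 26 they were 0.49 and 1.16. The opposite deviation occurred at ranks 2, 3 and 22 in T+, with -1.77, -0.95 and -0.65, while in clone 17 these were 0.05, -0.36 and -0.11. The members therefore did not vary as 1 group: the bright transcript of rank 2 was low in the T+ female in which the transcript of rank 1 was highest. These members were picked after their values were seen, and the pattern was not tested.

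The female that set the limit differed between members. Among mutants the lowest array was clone 17 replicate 3 for 9 members, clone 16 replicate 7 for 5 and clone 17 replicate 9 for 4, and another 6 arrays had it for 1 or 2 members each. Among W arrays the highest was replicate 9 for 13 members, replicate 5 for 7, replicate 3 for 6 and replicate 7 for 1. The number of probes that met the rule depended most on the W arrays. With clone 17 replicate 3 left out, 44 probes met it, and with any other mutant array left out 27 to 36. With W replicate 3 left out the number was 120, with W replicate 9 left out 81, with W replicate 5 left out 58 and with W replicate 7 left out 31. The 27 members were among the probes in each case, as the construction of the rule requires.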

How the data were processed

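RNA of 16 single females was hybridised to one-colour arrays. The authors deposited spot intensities from Agilent Feature Extraction (version 10.5 in the submitters' processing notes), background-corrected and not normalized between arrays, with marks for spots well above background. They also deposited normalized log2 values, which differed by at most 0.05 from quantile-normalized log2 processed signals minus each probe's median for 99.9% of values.

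Members were chosen on the deposited log2 values. The members and lists were chosen with earlier results of these data known. Levels and tests used log2 processed signals (floor 1, outlier spots missing, repeated spots averaged, control spots left out), quantile normalized here. limma 3.58.1 in R 4.3.3 fitted 1 model to the 16 arrays, with the filter and call limits given above. The procedure was tested on simulated data. The authors' lists of changed probes were used only for a gene model identifier, and their fold changes were not used. Named were the 12 members of largest gap, members with a gene model or past a test between mutant clones and the member of smallest gap. Members without a name are given by rank, besides 2 probe identifiers.

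Replicate numbers were not taken to pair the arrays, since not every pair correlated above 0.1. This criterion cannot show that arrays with the same number are unrelated, and a fit with the number as a block is given below. Over 24 pairs of arrays with the same number, deviations from the clone means correlated at -0.346 to 0.795, with 10 pairs below 0.1, and averaged 0.167 against -0.0412 for pairs with different numbers.

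Alternatives were 75th percentile scaling, normexp background correction (offset 50), the deposited values, filters on dim probes, other fold limits, slide or replicate block, array weights, trended variance with robust estimation, only the arrays compared, ANOVA with Dunnett's test (mvtnorm 1.3.3), each array left out in turn and, chosen after seeing the data, T+ replicate 5 and clone 17 replicate 5 left out together. Pathway and tissue lists could not be applied without probe names. No sequence of a member was used here.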

Additional observations from a re-analysis of the deposited data

Results flagged for a closer look

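In each clone, the member's highest or lowest female was set against the other 3 females, and 13 of 108 groups had 1 female far apart by Dixon's criterion. Chance flags about 1 in 20 groups (5%), and the members were chosen on the same values.

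In T+, replicate 5 was apart at 3 members. It was at 11.29 log2 units for rank 1, above the others at 6.67 to 7.09. For rank 6 it was at 7.75, above 7.25 to 7.27, and for rank 15 at 6.07, below 6.56 to 6.57. T+ replicate 9 was at 7.29 for rank 10, above 6.91 to 6.95. Clone 16 replicate 3 was at 9.42 for rank 22, below 9.52 to 9.54. In clone 17, replicate 5 was at 7.58 for rank 6, above 7.31 to 7.35, and replicate 3 at 6.45 for rank 15, below 6.81 to 6.87.

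W replicate 7, the array with the highest negative control signal, was the low array at 5 members. It was at 5.68 for rank 3 (others 6.63 to 6.80), 10.50 for rank 4 (11.06 to 11.11), 7.85 for rank 19 (8.01 to 8.04), 8.96 for rank 22 (9.35 to 9.38) and 4.50 for rank 26 (5.67 to 5.90). W replicate 3 was at 9.53 for rank 27, below 9.65 to 9.66. None of these low W values set a limit of the rule, which used the highest W array.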

How the results depend on the processing

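The median difference of the members kept its sign against W in all 31 settings tried, over ranges of 0.5 to 0.8 in T+, 0.48 to 0.73 in clone 16 and 0.43 to 0.65 in clone 17, as the rule implies. Between bi-allelic clones and T+ it was -0.05 to 0.07, and between clones 16 and 17 it was 0.05 to 0.13. The number of probes that met the rule was 27 on the deposited values, 45 after 75th percentile scaling (26 of the members among them), 53 with no background minimum, 21 after normexp (16 of the members) and 27 to 120 with 1 array left out. Under normexp, 11 members were thus not separated, and the cause was not tested.

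Counts of calls changed with many settings, and for these the cause was not tested. Given in the order T+, clone 16 and clone 17, 55, 22 and 6 tested probes were called higher, among them 9, 4 and 1 members. After 75th percentile scaling the T+ median was 0.80 and 2 members were called in clone 17. With normexp the medians were 0.50, 0.48 and 0.43, members called 4, 1 and 3, and clone 16 had 14 tested probes. With no filter on dim probes there were 28, 8 and 3 tested probes and 5, 1 and 0 members, and 2 probes between clones 16 and 17. With the slide as a block, without W replicate 7, there were 21, 6 and 3 probes, 1 member in clone 16, and 5 probes between bi-allelic clones and T+. Array weights gave 808, 627 and 560 probes, 13 members in clone 16 and 8 in clone 17, then 2278 probes and 1 member between bi-allelic clones and T+, and 3464 probes and 4 members between clones 16 and 17. With trended variance 2 members were called in clone 17, with no fold limit 3, and with a 2-fold limit 3 in T+. With only the arrays compared there were 25, 429 and 0 probes and 3, 8 and 0 members, and 13 probes between clones 16 and 17. ANOVA with Dunnett's test gave 10, 4 and 3 probes and 2, 0 and 0 members. Without T+ replicate 5 and clone 17 replicate 5, chosen after seeing the data, there were 890, 840 and 571 probes, 14 members in clone 16 and 8 in clone 17, then 1498 probes between bi-allelic clones and T+, and 2696 probes and 3 members between clones 16 and 17.

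With the replicate number as a block, clone 16 had 240 probes and 10 members, clone 17 had 3 and 0, and 6 probes were called between clones 16 and 17. The numbers mark no known pairing.

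With each array left out in turn, tested probes called ranged over 14 to 474 in T+, 1 to 323 in clone 16, 0 to 26 in clone 17, 3 to 406 for bi-allelic clones minus T+ and 1 to 1792 for clone 16 minus clone 17, and members over 4 to 10, 0 to 13, 0 to 6, 0 to 0 and 0 to 1. The member medians were 0.61 to 0.71, 0.56 to 0.73, 0.5 to 0.63, -0.05 to 0.07 and 0.06 to 0.13. The highest counts came without T+ replicate 5 (474, 323 and 406) or clone 17 replicate 5 (26 and 1792), the lowest without T+ replicate 7 (14), clone 16 replicate 3 or 5 (1), clone 17 replicate 9 (0) and T+ replicate 3 or 9 (3).

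For CUST_148729_PI429715507 the difference of clone 16 minus clone 17 passed the test in limma with array weights (3.24, adjusted p = 0.0011), without clone 17 replicate 5 (3.57, adjusted p = 0.0393) and without both replicates 5 of T+ and clone 17 (3.57, adjusted p = 0.00122), and in no other setting. With array weights, both probes of gene model Dapma7bEVm001846 passed the adjusted threshold in limma, with differences under the 1.5-fold limit. Clone 16 minus clone 17 was -0.38 for CUST_41043_PI429715507 (adjusted p = 0.00576) and -0.39 for CUST_41039_PI429715507 (adjusted p = 0.00298). Bi-allelic clones minus T+ was -0.25 (adjusted p = 0.0471) and -0.23 (adjusted p = 0.0487) in the same order. Signal over background limits the dim members, of which 11 were not well above background on every W array. With 4 females a clone, the number of animals limits each difference.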
